A study of Mus musculus with 6 samples.

Results

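The miR-10, miR-99/100 and miR-125 families are 3 related groups of small regulatory RNAs, represented here by the 5p arms of miR-10a, miR-10b, miR-99a, miR-99b, miR-100, miR-125a and miR-125b. They were taken by name from the array annotation, which gave 7 of the 1881 mouse miRNAs on the array and 14 of its 4415 probes. The series measured miRNAs in exosomes, small vesicles that cells release, from the culture supernatant of RAW 264.7 cells, a mouse macrophage line. There were 3 samples from cells given lipopolysaccharide (LPS, a bacterial cell wall component) at 2 µg/mL, with supernatant taken after 72 h, and 3 samples from untreated cells, named control, for which no collection time was recorded. A difference in culture time therefore cannot be told apart from LPS. All samples came from the same cell line, and the labels do not say whether replicates were separate cultures. The p-values thus cover only the sample-to-sample spread seen here, possibly technical. More vesicles and more of a miRNA per vesicle cannot be told apart in such samples.

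A miRNA guides silencing proteins to mRNAs that pair with its seed, bases 2 to 8 from its 5′ end, and miRNAs with the same seed are grouped as a family. The genes of these families sit at conserved places: miR-10a and miR-10b lie within the Hox gene clusters that pattern the body axis, and the miR-99/100 and miR-125 genes flank let-7 genes in 3 clusters. In macrophages, miR-125b has been reported to target Tnf mRNA, while miR-99a and miR-100 are known for targeting Mtor.

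The mature sequences follow in full, since the families differ in few bases and the array has to tell them apart. All 7 were matched by name in RefSeq, with coordinates of build GRCm38.p6, plus strand, and the seed in capitals.
mmu-miR-10a-5p, chr11:96317186-96317208, within Hoxb3: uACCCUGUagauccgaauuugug
mmu-miR-10b-5p, chr2:74726074-74726096, within Hoxd3 and Hoxd4: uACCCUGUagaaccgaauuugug
mmu-miR-99a-5p, chr16:77598940-77598961: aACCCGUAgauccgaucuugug
mmu-miR-99b-5p, chr17:17830194-17830215, within Spaca6: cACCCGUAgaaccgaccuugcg
mmu-miR-100-5p, chr9:41531437-41531458, within the non-coding gene Mir100hg: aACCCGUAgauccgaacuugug
mmu-miR-125a-5p, chr17:17830817-17830840, within Spaca6: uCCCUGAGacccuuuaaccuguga
mmu-miR-125b-5p, chr9:41581940-41581961 (Mir125b-1, within Mir100hg) and chr16:77646279-77646300 (Mir125b-2): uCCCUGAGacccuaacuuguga

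The 3 seeds divide the miRNAs as their names do. ACCCUGU was shared by miR-10a and miR-10b and ACCCGUA by miR-99a, miR-99b and miR-100, with no other mouse miRNA in the RefSeq table carrying either. CCCUGAG was shared by miR-125a, miR-125b, miR-351-5p, miR-6367 and miR-6394. The miR-125b signal sums over 2 genes with the same mature sequence, which the array cannot separate. Counting from the 5′ end, miR-10a and miR-10b differed only by U12A and miR-99a and miR-100 only by U16A, with the first-named miRNA's base first. Between miR-99a and miR-99b there were 4 differences, A1C, U11A, U16C and U21C. miR-125a and miR-125b shared their first 13 bases and then diverged.

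Each miRNA had 2 probes of 15 spots each, complementary to its 3′ part, so that none covered the whole seed. The brighter of the 2 represented the miRNA and was the longer in each case. These probes are shown 5′ to 3′ because pairs of them differ in a single base.
Probe of miR-10a-5p: cacaaattcggatctacaggg
Probe of miR-10b-5p: cacaaattcggttctacaggg
Probe of miR-99a-5p: cacaagatcggatctacgg
Probe of miR-100-5p: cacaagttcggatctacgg
Probe of miR-99b-5p: cgcaaggtcggttcta
Probe of miR-125a-5p: tcacaggttaaagggtctc
Probe of miR-125b-5p: tcacaagttagggtctc
The miR-10a and miR-10b probes each had 1 mismatch to the other miRNA, and so did those of miR-99a and miR-100. How much signal one such miRNA gives on the probe of the other was not tested, so the values of miR-10b-5p and miR-100-5p are open to signal from miR-10a-5p and miR-99a-5p.

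The LPS arrays were brighter for most miRNAs, which bears on each value below. Without scaling, 364 of the 412 miRNAs tested below were called higher in LPS and 39 lower. Across the 198 miRNAs that all 6 arrays detected, the unscaled 75th percentile was 2229 ± 180 in LPS and 477 ± 41.0 in control (SD, n = 3 each), a 4.67-fold difference. The spiked-in RNAs did not share it: their geometric mean was 2377 ± 181 in LPS and 2707 ± 83.9 in control (SD, n = 3 each), a ratio of 0.878. The scanner software used a measured effective feature size of 0.812 to 0.829 on the LPS arrays and its default of 0.6 on the control arrays. All arrays were on 1 slide and in 1 scan. LPS 2 and 3 occupied its second row and the other 4 arrays its first. The part of brightness and feature size in the changes below was not tested. For slide row, alternative fits took it as a block or used the first row alone, where LPS 1 is the only LPS array. Its part was not tested beyond those fits. Unless stated otherwise, changes were measured after each array was divided by that percentile, on the log2 scale, with limma and Benjamini-Hochberg adjustment over 412 tested miRNAs, and they are relative to the shared miRNAs, whose own median change was 0.77. The number of arrays limits the precision.

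In exosomes of LPS-treated cells, miR-125b-5p rose 4.16-fold and miR-99a-5p and miR-10a-5p 2.15-fold and 2.01-fold relative to the scaling. miR-125a-5p, detected in LPS only, was at least 1.35-fold higher after the same scaling. That bound moved with the scaling, to 1.09 with median centring and 6.32 without scaling. The other members, miR-100-5p, miR-99b-5p and miR-10b-5p, were dim in control, and their direction after scaling could not be read.

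miR-125b-5p, the member reported to target Tnf, had processed signals of 6439, 8672 and 8690 fluorescence units in LPS, against 378, 426 and 412 in control. Every LPS array was far above every control array, and LPS 1 was the lowest of its group. After scaling, its log2 values were 12.07, 12.29 and 12.31 in LPS and 10.21, 10.14 and 10.15 in control. The log2 change was 2.06 (SE 0.07, adjusted p = 3.37e-07 in limma), and with slide row as a block, or within the first row, it was 1.91. Both probes showed it, the 17-base probe at 2.06 and the 16-base probe at 2.28 on the log2 scale. By size of change it ranked 23 of the 198 miRNAs detected on all arrays.

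miR-125a-5p, which shares the miR-125 seed and is processed from the cluster in Spaca6, was read in one group only. Its signals were 177, 214 and 218 units in LPS, against 7.01, 10.3 and 8.14 in control, where no array was well above background, the scanner software's flag for a spot clearly brighter than its surroundings. The groups did not overlap. Such a miRNA has only a bound: the LPS mean over the higher of the control signal and the lowest signal of any probe well above background on the same array. That bound was at least 1.35-fold after scaling. Before scaling, the measured means were 203 ± 22.5 units in LPS and 8.47 ± 1.64 in control (SD, n = 3 each). The fitted change on floored values was 2.37 on the log2 scale (adjusted p = 4.96e-07 in limma). Its call carries no weight, since the miRNA passed the filter only through LPS. The bound lay at 1.09 with median centring and at 6.32 without scaling. With normexp background correction, which adds an offset of 50 before scaling, the fitted change was instead −0.22 (adjusted p = 0.00102 in limma). Division by the larger LPS percentile shrinks that offset more in LPS than in control. This lowers dim miRNAs in LPS, so no direction is read from that fit.

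miR-99a-5p had signals of 1320, 1590 and 1513 units in LPS, against 139, 152 and 148 in control, with no overlap and little spread within either group. The scaled log2 values were 9.79, 9.84 and 9.78 in LPS and 8.77, 8.66 and 8.67 in control. Its log2 change was 1.11 (SE 0.05, adjusted p = 8.14e-07 in limma), or 1.09 within the first slide row. The shorter probe was well above background on the LPS arrays only. By size of change miR-99a-5p ranked 72 of the 198 miRNAs detected on all arrays.

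miR-100-5p, a base away from miR-99a-5p, had 86.5, 101 and 93.3 units in LPS, against 13.1, 9.7 and 11.7 in control. No array of the control group detected it. The bound after scaling was 0.626, under 1, so no fold is given, although the fitted call was higher (adjusted p = 0.00320 in limma). That call was lost with no filter (adjusted p = 0.0513 in limma) and within the first slide row (adjusted p = 0.138 in limma). Without scaling the bound was at least 2.92-fold, and with scaling to the spiked-in RNAs at least 3.33-fold.

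miR-99b-5p, of the Spaca6 cluster, had 33.5, 43.7 and 43.4 units in LPS, against 2.59, 0.98 and 4.41 in control. The control values were at background, and the LPS values were just above the lowest probe that passed the flag. Its bound was 0.267 after scaling, which gives no fold although the fitted call was higher (adjusted p = 7.73e-06 in limma), and at least 1.25-fold without scaling. With the floor 2 times as high all its values lay at the floor, and the call was lost.

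miR-10a-5p had signals of 685, 821 and 755 units in LPS, against 73.7, 84.1 and 83.1 in control, again without overlap. Its scaled log2 values were 8.84, 8.89 and 8.78 in LPS and 7.85, 7.80 and 7.84 in control. The log2 change was 1.01 (SE 0.04, adjusted p = 9.91e-07 in limma), and 1.01 within the first slide row. Of its 2 probes, the shorter was well above background in LPS only. By size of change miR-10a-5p ranked 80 of the 198 miRNAs detected on all arrays.

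miR-10b-5p, the Hoxd paralogue, had 27.3, 32.5 and 29.0 units in LPS, against 7.88, 8.11 and 9.91 in control. It was well above background on none of the 6 arrays, although the files flag it as detected on all LPS arrays. The unscaled LPS values were higher and the scaled ones lower than those of control, with a fitted log2 change of −0.44 (adjusted p = 0.00415 in limma). No direction is read from it, and with quantile normalization the fit gave 0.41.

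**Figure D1:**
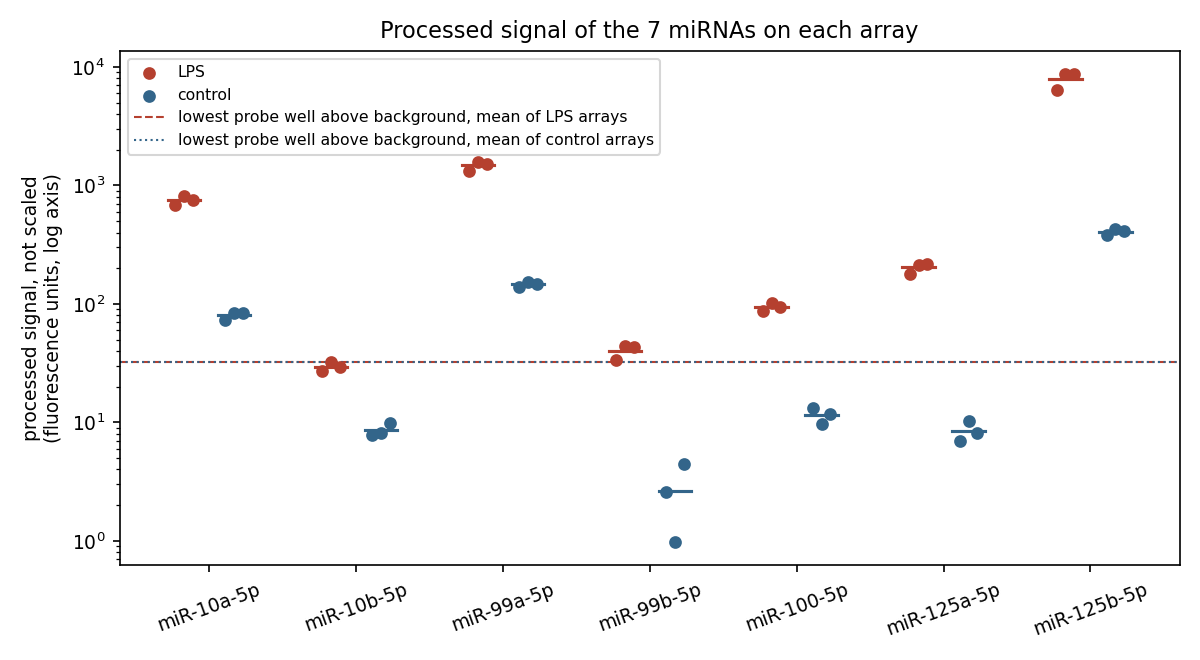
Processed signal before scaling of the 7 miRNAs (log axis, fluorescence units), with 1 point per array and a bar at the mean of 3, LPS left of control. The horizontal lines mark the lowest probe well above background, 32.4 units as the mean of the LPS arrays and 32.0 of the control arrays, which nearly coincide, and miR-10a-5p, miR-99a-5p and miR-125b-5p lie above them in both groups.

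Counted over the whole fit, 6 of the 7 members were called higher and 1, miR-10b-5p, lower. Among all 412 tested miRNAs 65.5% were called higher and 26.7% lower. The same 6 members had every LPS array above every control array, as did 66.3% of all tested miRNAs. Within these counts, 4 members passed the filter only through the LPS arrays. Such a filter leans towards a difference without forcing one, so their calls carry no weight. Of the 187 tested miRNAs detected on no control array, 145 were called higher. The 3 members detected on all 6 arrays were all called higher and none lower, against 58.1% higher and 38.4% lower of the 198 such miRNAs. Their median log2 change was 1.11, against 0.77 over the 198.

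The members that could be measured in both groups did not change by the same amount. Dividing an array by any factor leaves the ratio of 2 miRNAs on it as it was. There were 3 such ratios. Two-sided exact permutation of 3 against 3 samples allows no p below 0.1. The log2 ratio of miR-125b-5p over miR-10a-5p was 3.23, 3.40 and 3.53 in LPS, against 2.36, 2.34 and 2.31 in control. It was thus 1.05 higher, or 2.07-fold, with 3 of 3 LPS arrays above every control array (exact permutation p = 0.1, adjusted p = 0.1 over 3 pairs). For miR-125b-5p over miR-99a-5p the mean log2 ratios were 2.42 ± 0.12 in LPS and 1.47 ± 0.02 in control (SD, n = 3 each), a difference of 0.95 (exact permutation p = 0.1, adjusted p = 0.1). miR-99a-5p over miR-10a-5p differed by 0.10 only, with 0.97 ± 0.03 in LPS and 0.87 ± 0.04 in control (SD, n = 3 each; exact permutation p = 0.1, adjusted p = 0.1). With the brighter probe, miR-125b-5p thus differed from the other 2 by more than the spread of the arrays, and miR-99a-5p and miR-10a-5p lay closer together. The last did not hold under other summaries: the difference of miR-99a-5p over miR-10a-5p was 0.19 with the mean over probes, 0.24 with the sum of probe totals, 0.37 with normexp and 0.74 in the value table. That of miR-125b-5p over miR-10a-5p was 1.52 in the value table and 1.59 with normexp. With the gene total the 2 differences were 0.93 and 1.71. On control 3 the gene total of miR-10a-5p, 74.0 against a probe sum of 17.6, held that of miR-107-3p, so these 2 values are not read.

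**Figure D2:**
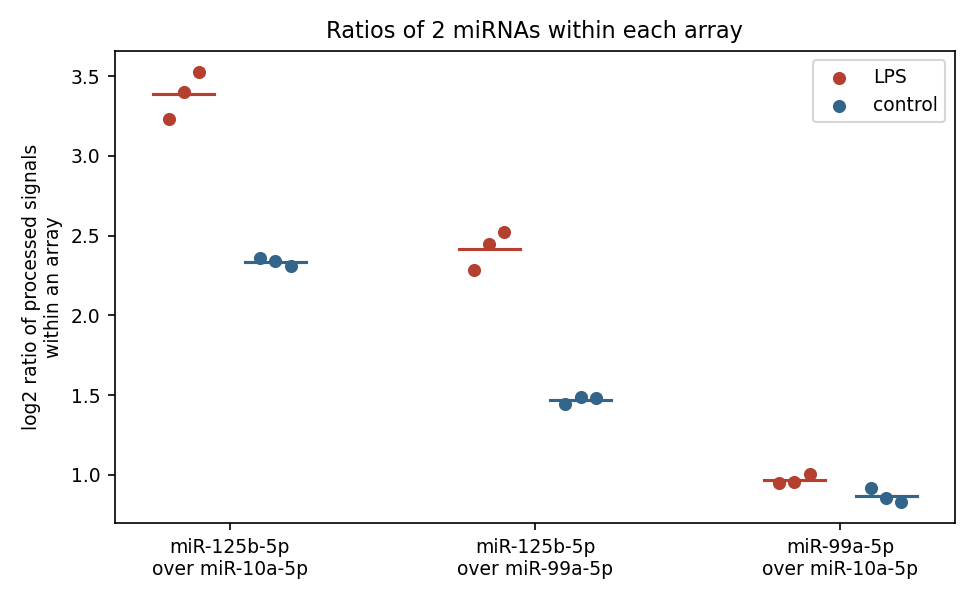
Log2 ratio of the processed signals of 2 miRNAs on the same array, 1 point per array, with a bar at the mean of 3, LPS left of control. The ratios of miR-125b-5p to miR-10a-5p and to miR-99a-5p are 1.05 and 0.95 higher in LPS, and that of miR-99a-5p to miR-10a-5p is 0.10 higher.

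The size of each rise depended on the scaling, while its sign for these 3 members did not in the settings run. Scaled to the spiked-in RNAs, miR-125b-5p was at 4.47, miR-99a-5p at 3.52 and miR-10a-5p at 3.42 on the log2 scale, with 3.18 as the median of the 198 shared miRNAs. Normexp gave the smallest values for miR-10a-5p, 0.40, and for miR-99a-5p, 0.77, and median centring that for miR-125b-5p, 1.74. In the authors' deposited value table, whose normalization is not stated, the changes were 2.02 for miR-125b-5p, 1.25 for miR-99a-5p and 0.50 for miR-10a-5p. The median of the 198 shared miRNAs was 0.53 in that table, so miR-10a-5p lay slightly below it. There miR-125a-5p had values of 5.61, 5.71 and 5.82 in LPS, against 2.88, 3.10 and 2.92 in control.

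**Figure D3:**
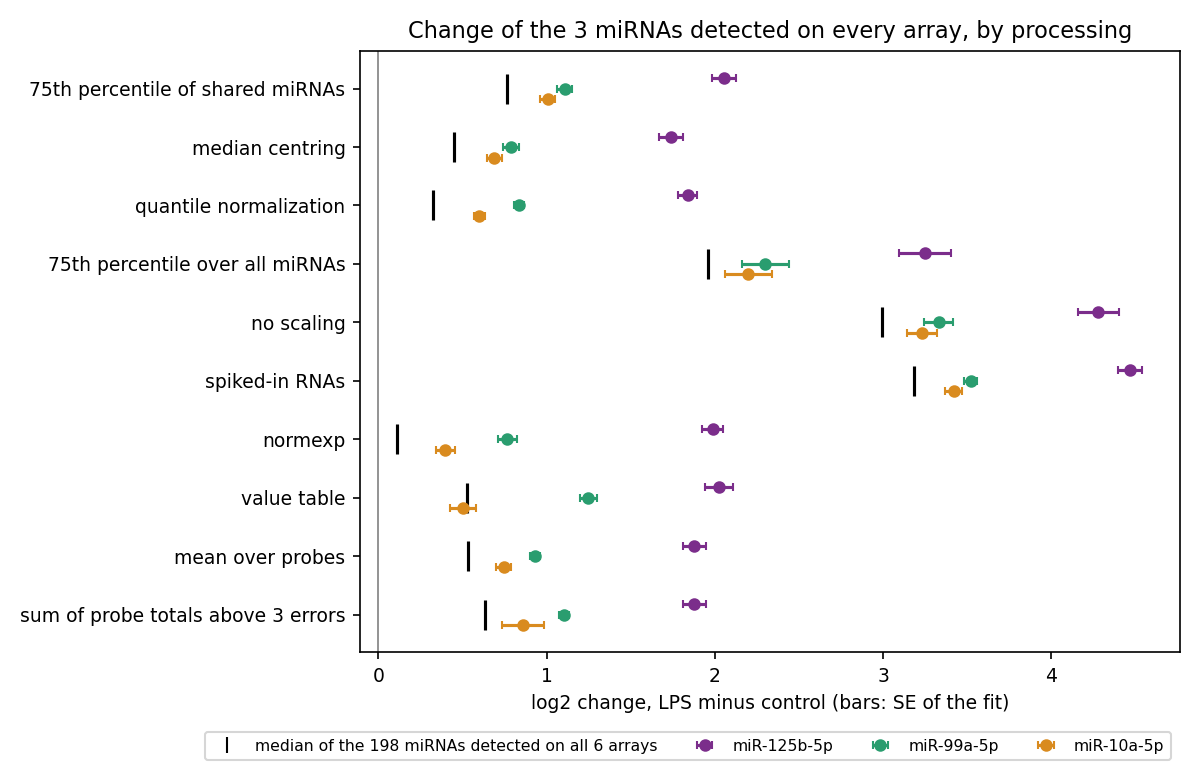
Log2 change, LPS minus control, of miR-125b-5p, miR-99a-5p and miR-10a-5p under 10 ways of processing, the gene total not among them, with the SE of the fit as bars and the median of the 198 miRNAs detected on all arrays as a black tick. All points lie above 0, and miR-125b-5p is the highest of the 3 in each row, from 1.74 with median centring to 4.47 with spiked-in RNAs.

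Of the let-7 miRNAs in the 3 gene clusters, the 5p arms were detected in LPS and the listed 3p arms on no array. Members of the let-7 family are widespread brakes on growth genes, and let-7e lies between miR-99b and miR-125a. Of 6 listed arms, 3 were detected on no array, as were 1417 of the 1881 miRNAs on the array. The other 3 were tested and called higher, against 65.5% of all tested miRNAs. One of the 3, let-7e-5p, passed the filter only through LPS, so its call carries no weight. let-7c-5p, the partner of miR-99a, had 15934, 18088 and 18172 units in LPS, against 914, 1039 and 1067 in control, a log2 change of 1.89 (SE 0.04, adjusted p = 5.21e-08 in limma). let-7a-5p, one of whose genes lies beside miR-100, was at 1.81 (SE 0.05, adjusted p = 9.12e-08 in limma). The mature let-7a and let-7c also come from genes elsewhere. let-7e-5p was well above background in LPS only, at 256, 285 and 278 units against 18.1, 19.4 and 18.8 in control, with a bound of at least 1.82-fold. In the Spaca6 cluster, miR-125a-5p and let-7e-5p thus had bounds above 1 and miR-99b-5p did not. With normexp, whose offset lowers dim miRNAs in LPS, let-7e-5p was at −0.066.

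Opposite arms, the 3p strands that are usually degraded, were mostly absent. Of 8 listed, 5 were detected on no array: those of miR-10a, miR-10b and miR-100 and both of miR-125b. That is not a larger share than over the whole array, where 1417 of 1881 miRNAs were detected on no array. miR-125a-3p, with 126, 138 and 127 units in LPS, against 20.3, 19.1 and 20.0 in control, had a bound of 0.871 that gives no fold. miR-99a-3p averaged 32.1 units in LPS and 9.27 in control, and miR-99b-3p 26.2 in LPS and −0.648 in control, both near background. miR-351-5p, a rodent miRNA with the miR-125 seed, was detected on no array, with signals of −3.12 to 3.71 units, while its opposite arm miR-351-3p had 53.9, 67.0 and 66.2 units in LPS, against values below 0 in control (bound 0.415, no fold given).

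Among the 197 other miRNAs detected on all arrays, those closest in pattern were found by the root mean square difference of scaled log2 values, each centred on its control mean, over the 6 arrays. For miR-125b-5p these were miR-532-5p (0.067), let-7d-5p (0.10) and miR-140-3p (0.11). For miR-99a-5p they were miR-184-3p (0.028), miR-223-3p (0.046) and miR-484 (0.051), and for miR-10a-5p miR-30a-5p (0.030), miR-15a-5p (0.034) and miR-7036a-5p (0.035). With such centring the measure largely follows the size of the change. The log2 changes of these neighbours were 1.96 to 2.10, 1.08 to 1.12 and 0.99 to 1.02, in that order.

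The macrophage label was checked against miRNAs of blood cells and of other tissues. All 3 listed blood-cell miRNAs, miR-223-3p and both arms of miR-142a, were detected in LPS, and 2 of them in control too. Their summed signals were 742 to 984 units in LPS and 89.0 to 101 in control. miR-223-3p, a myeloid miRNA, had 382, 445 and 436 units in LPS, against 38.2, 45.2 and 44.4 in control. Since miR-10, miR-99/100 and miR-125 are also abundant in endothelial and mesenchymal cells, 14 markers of erythroid, endothelial, mesenchymal, epithelial and neural cells were read. Of these, 13 were detected on no array, as were 1417 of the 1881 miRNAs on the array. The summed signal of all 14 was 110 to 141 units in LPS and 42.1 to 54.2 in control. The exception was miR-200c-3p, an epithelial miRNA, with 34.6 to 39.7 units in LPS, against values below 0 in control. The endothelial miR-126a-3p had 17.9 to 19.6 units in LPS, against 3.78 to 6.80 in control, never well above background, and miR-126a-5p had 13.2 to 17.7 units in LPS, against 14.2 to 20.9 in control. The part of these markers in the results was not tested.

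A further reading in the files, the gene total signal, could not be used for the dim members. It is the software's own sum over a miRNA's probes. miR-100-5p had gene totals of 1978, 2343 and 2304 in LPS, while its own probes above 3 times their error summed to 24.8, 29.7 and 26.9. The excess equalled the gene total of let-7k, the detected miRNA listed before it by name, which was 1954, 2313 and 2277. For miR-10b-5p the excess was the total of miR-10a-5p, 246, 298 and 269. For miR-99b-5p it was the total of miR-99b-3p, which itself held that of miR-99a-5p. Summed over the 6 arrays, there were 520 readings of a detected miRNA on an array whose gene total exceeded the sum of its own probes, and in all 520 the excess equalled the total of the detected miRNA before it in name order, within 0.1% of the total. The same occurred for miR-10a-5p on control 3, with a total of 74.0 against a probe sum of 17.6 and a preceding miR-107-3p of 56.4. There the gene total put the change of miR-10a-5p at 0.69 and ended its call (adjusted p = 0.249 in limma). The sum of its own probe totals gave 0.86.

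**Figure D4:**
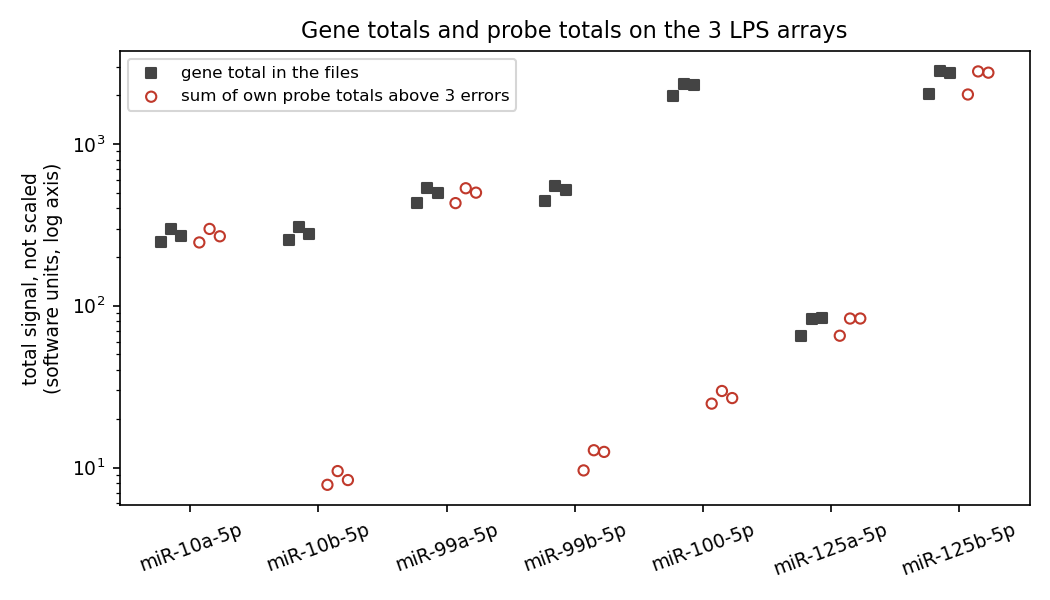
Gene total signal in the files (squares) and the sum of a miRNA's own probe totals above 3 errors (open circles) on the 3 LPS arrays, log axis, in the software's units. Both coincide for miR-10a-5p, miR-99a-5p, miR-125a-5p and miR-125b-5p, and the gene total lies far above the probe sum for miR-10b-5p, miR-99b-5p and miR-100-5p.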

How the data were processed

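Exosomal RNA of 3 LPS and 3 control samples was hybridised to 6 one-colour Agilent mouse miRNA arrays. The deposited scanner files give each spot's intensity on a linear scale. The processed signals had the background subtracted by Agilent Feature Extraction. The file headers give 10.7.1.1 as the version of its grid placement step, and version 9.1 stands in the submitters' processing notes. The authors' deposited value table is on a log2 scale and no source used here states its normalization. Spots flagged as outliers were left out (all were kept where every spot of a probe was flagged), spots were averaged per probe, and the brighter probe stood for a miRNA. A probe was well above background where at least 50% of its spots were flagged so. Signals were scaled by the 75th percentile of the miRNAs shared by all arrays, then floored at 13.0 units (3.70 on the log2 scale). miRNAs detected on 3 of 3 arrays of a group were tested with limma 3.58.1 in R 4.3.3, threshold 0.05. Single ratios were tested by exact permutation.

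Alternatives covered scaling, background, summary per miRNA, filters, floor, variance model, blocks and left-out samples. The named miRNAs were all members, the opposite arms, the let-7 cluster partners, miR-351, and the 3 nearest patterns; other names appear where a value turns on them. Members and lists were chosen with earlier results of these data known. In simulated data over 412 miRNAs the fit recovered 94% of changes of 0.5 and 100% of changes of 1 on the log2 scale, and called 6 of 212 unchanged miRNAs. In the real data 270 of the 412 were called higher and 110 lower. The simulated share of unchanged miRNAs was thus larger, and these rates may not carry over. No pairing by replicate number was seen (deviations of same-numbered samples correlated below 0), but 3 samples per group cannot exclude one. No replicates held identical values. No per-sample columns were left unused (0).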

Additional observations from a re-analysis of the deposited data

Results flagged for a closer look

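The gene total signal, a column that the comparisons do not use, stood out for 5 arms because it was high in LPS while control arrays were near 2. Its LPS mean was 2208 for miR-100-5p (2.08 in control), 503 for miR-99b-5p (2.06 in control) and 279.5 for miR-10b-5p (2.07 in control). The same column averaged 491 in LPS for miR-99b-3p (1.46 in control) and 172 for miR-99a-3p (2.07 in control). The sums of their own probe totals in LPS averaged 27.1 for miR-100-5p, 11.6 for miR-99b-5p, 8.57 for miR-10b-5p, 3.54 for miR-99b-3p and 9.31 for miR-99a-3p. With groups of 3 samples, no single array was tested for standing apart.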

How the results depend on the processing

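miR-125b-5p and miR-99a-5p kept their direction and their call under all alternatives run, and miR-10a-5p under all but the gene total (0.69); their lowest changes were 1.74, 0.77 and 0.40. The count of 1 member lower, miR-10b-5p, became 0 with quantile normalization, no scaling, spiked-in RNAs, the percentile over all miRNAs, the gene total, the value table, well above background as detection, miRNAs on all 6 arrays, no filter, a floor 2 times as high, the slide row as a block, the first row alone and the sum of probe totals (added after seeing the data). Members higher numbered 5 with no filter and within the first slide row (miR-100-5p lost) and with the higher floor (miR-99b-5p lost). With normexp 3 members were higher and 4 lower, with 113 of all tested higher and 284 lower. Over miRNAs on all 6 arrays 3 members and 115 miRNAs were higher, and with no filter 269 were lower. All tested miRNAs lower numbered 38 with spiked-in RNAs, 39 unscaled and 59 with the percentile over all miRNAs. Higher calls made up 71.1% of calls here, 28.5% with normexp, 90.7% with spiked-in RNAs, 90.3% unscaled and 85.1% with the percentile over all miRNAs. miR-10b-5p turned to 0.62 with the percentile over all miRNAs, 0.65 unscaled, 0.41 with quantile normalization, 0.66 with spiked-in RNAs, 4.33 with the gene total, 0.26 with the value table and 0.0041 with probe totals; miR-99a-3p turned to 0.67, 0.75, 0.34, 0.76, 3.63, 0.26 and 0.11 in the same settings. Under normexp miR-99b-5p was −0.62, miR-100-5p −0.81, miR-125a-5p −0.22, miR-99b-3p −0.58, miR-125a-3p −0.84, let-7e-5p −0.066 and miR-351-3p −0.54. The within-array ratio of miR-125b-5p over miR-10a-5p was 1.59 with normexp, 1.71 with the gene total and 1.52 with the value table. That of miR-125b-5p over miR-99a-5p was 1.22, 0.78 and 0.78 in the same settings, and 0.78 with probe totals. miR-99a-5p over miR-10a-5p was 0.37, 0.93 and 0.74, then 0.19 with the mean over probes and 0.24 with probe totals. The gene total holds other miRNAs' totals; other causes were not tested. With the replicate block the counts were 270 higher and 110 lower, as without it. Same-numbered samples correlated at −0.40, −0.22 and −0.28 in their deviations. No pairing by number was seen, but 3 samples per group cannot exclude one. Leaving out any sample left 6 members higher and 1 lower, with ratios of 0.98 to 1.13, 0.90 to 1.02 and 0.082 to 0.124 for the 3 pairs in the order above. Dim signal in control limits miR-10b-5p, miR-99b-5p, miR-100-5p and miR-125a-5p.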
